A study of Homo sapiens with 4 samples.

Results

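The CCN genes and the YAP genes compared here are 10 genes of the 62077 rows in the deposited expression table. CYR61, CTGF, NOV, WISP1, WISP2 and WISP3 (now named CCN1 to CCN6) are the complete CCN family. YAP1, AMOTL2, AJUBA and ANKRD1 belong to the Hippo and YAP pathway. Members were taken as the rows with these symbols placed on an assembled chromosome, and each symbol gave 1 row. They were selected with the values of the same 4 libraries in view, since WISP2 is among the coding genes with the largest increase after TET1 knockdown. Their TET1-si responses are therefore descriptions.

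RNA was sequenced from FADU cells, an established epithelial line from a human squamous cell carcinoma of the hypopharynx, to ask which hypoxia-responsive transcripts depend on TET1, a dioxygenase that oxidises 5-methylcytosine. Cells carried a lentiviral pLKO.1 vector with either a scrambled short hairpin or one against TET1 (TET1-si), so all 4 groups had been infected. Both kinds of cell were kept in normoxia (N-scr and N-si) or in 1% O2, 5% CO2 and balancing nitrogen for 19 h (H-scr and H-si). Each of the 4 groups was 1 library of 22500000 to 24600000 reads, so no difference between 2 libraries has a replicate check and no test between conditions was run. Bracketed ranges are exact 95% counting intervals from approximate read numbers and cover counting error only.

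CCN proteins are secreted matricellular proteins that bind integrins, proteoglycans and LRP co-receptors and modulate growth factor signalling. YAP and its paralogue TAZ are transcriptional co-activators that enter the nucleus when the Hippo kinases are inactive and act through TEAD factors. CYR61, CTGF and ANKRD1 are textbook YAP/TAZ targets, AMOTL2 is both a target and a cytoplasmic partner of YAP, and AJUBA is a LIM protein that binds the LATS kinases and limits their action on YAP.

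The promoter windows of CTGF, ANKRD1 and YAP1 are shown because CTGF and ANKRD1 differed in opposite directions after TET1-si and both carry repeats of the TEAD motif, and YAP1 codes for the co-activator. Each is the 250 bases before the start site from RefSeq on GRCh38.p14, read 5′ to 3′ on the strand of the gene, with the TEAD motif GGAATG in capitals. CTGF lies at chr6:131951373-131951622 on the minus strand, ANKRD1 at chr10:90921088-90921337 on the minus strand, and YAP1 at chr11:102110197-102110446 on the plus strand.
CTGF: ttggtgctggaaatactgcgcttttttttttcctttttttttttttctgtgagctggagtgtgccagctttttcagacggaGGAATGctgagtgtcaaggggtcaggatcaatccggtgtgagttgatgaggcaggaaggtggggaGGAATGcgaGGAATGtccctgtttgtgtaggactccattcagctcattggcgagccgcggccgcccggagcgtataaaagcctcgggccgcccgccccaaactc
ANKRD1: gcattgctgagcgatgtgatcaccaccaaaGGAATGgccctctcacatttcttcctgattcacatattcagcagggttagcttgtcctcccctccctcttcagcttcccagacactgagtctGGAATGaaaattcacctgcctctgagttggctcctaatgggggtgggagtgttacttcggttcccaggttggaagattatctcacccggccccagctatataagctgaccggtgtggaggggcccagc
YAP1: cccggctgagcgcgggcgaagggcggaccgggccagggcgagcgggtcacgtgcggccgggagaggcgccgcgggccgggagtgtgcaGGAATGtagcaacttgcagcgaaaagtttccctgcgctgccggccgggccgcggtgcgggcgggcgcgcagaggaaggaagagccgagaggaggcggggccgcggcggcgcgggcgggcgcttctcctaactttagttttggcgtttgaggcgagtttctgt
The CTGF window held the motif 3 times, with the first base 169, 104 and 95 bases upstream of the start, the last pair being 3 bases apart. The ANKRD1 window held it 2 times, at 220 and 128 bases upstream, and the YAP1 window 1 time, at 162 bases upstream.

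The RefSeq table gave 8 windows for 6 of the 10 members, namely CTGF, WISP3, ANKRD1, AMOTL2, YAP1 and AJUBA. GGAATG or its reverse complement was found in 6 of the 8 windows, at least 1 for each of the 6 members. The motif was present in 11.9% of all 35116 windows of this length, at least 2 times in 0.94% and at least 3 times in 0.0826%. AMOTL2 carried the reverse complement 69 bases upstream in 1 of its 2 windows, AJUBA carried GGAATG 59 bases upstream in 1 of its 2 windows, and WISP3 carried it 128 bases upstream. The core hypoxia-response motif ACGTG, searched on both strands, was found in 4 of the 8 windows, those of WISP3 and YAP1 and both of AJUBA, in 0 of the CTGF, ANKRD1 and AMOTL2 windows, and in 18.5% of all windows. In the YAP1 window its 2 matches overlap, as the 2 strands of CACGTG, 203 and 202 bases upstream, and none of these matches overlaps GGAATG. CpG dinucleotides, the usual site of DNA methylation, numbered 36 in the YAP1 window, 13 in the CTGF window and 4 in the ANKRD1 window, against a median of 11 over all windows. A match describes letters in the window and is not evidence of binding.

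The knockdown was visible in the target transcript at low abundance. Levels are FPKM, fragments per kilobase of exon scaled to the mapped fragments of the library, and TET1 was at 0.129 (N-scr) and 0.331 FPKM (H-scr) without the knockdown and 0.0493 (N-si) and 0.122 (H-si) with it. It was 2.71-fold (1.70 to 4.45) lower in H-si than in H-scr and 2.63-fold (1.26 to 5.85) lower in N-si than in N-scr, on 11 to 74 reads. Since FPKM is per length, levels can be set side by side between genes.

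**Figure D1:**
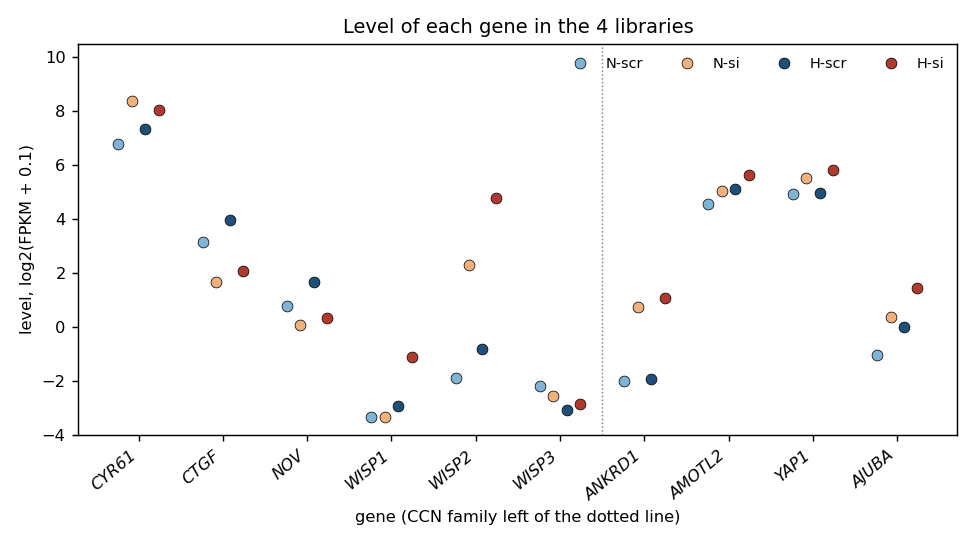
Level of the 10 genes in the 4 libraries as log2(FPKM + 0.1), 1 point per library with no replicates; the 6 CCN genes stand left of the dotted line. WISP2 and ANKRD1 are separated by the knockdown (both TET1-si points above both scrambled points), CTGF and NOV are ordered the opposite way, and CYR61 is the most abundant gene in every library.

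WISP2 (ENSG00000064205, hg19 chr20:43343485-43357150, plus strand) codes for a CCN protein that lacks the carboxy-terminal cystine knot domain of the other family members. Its level was 0.173 (N-scr) and 0.464 FPKM (H-scr) without the knockdown and 4.78 (N-si) and 27.5 (H-si) with it. Both TET1-si libraries were thus far above both scrambled libraries, and the hypoxic TET1-si library was the highest of all. About 4, 12, 125 and 659 reads, in this order, lay behind these levels. The FPKM ratio of TET1-si to scrambled cells was 59.4 (34.1 to 117) under hypoxia and 27.7 (11.2 to 109) under normoxia. N-si, which saw no low oxygen, already exceeded H-scr (interval of the ratio 5.78 to 20.8). H-si was a further 5.76-fold (4.74 to 7.01) above N-si, whereas H-scr and N-scr could not be separated at this depth (ratio 2.69, 0.848 to 11.9). Folds are plain FPKM ratios, while log2 differences and responses in the text are on the log2(FPKM + 0.1) scale, which understates those of low genes. On that scale WISP2 was higher after TET1-si by 5.62 under hypoxia and 4.16 under normoxia. This placed it at rank 3 under hypoxia and rank 12 under normoxia among the 11907 protein-coding genes with a mean of at least 1 FPKM over the 4 libraries. With a minimum of 5 FPKM the ranks were 2 and 7 of 9465. WISP2 reached these minimums through its TET1-si libraries, as both scrambled libraries were below 1 FPKM. In bulk RNA fewer cells of a kind and less RNA per cell cannot be told apart.

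WISP2 lies inside RP11-445H22.4, a long non-coding gene on the opposite strand (chr20:43323533-43374662). That gene stood at 0 (N-scr) and 0.388 FPKM (H-scr) without the knockdown and 1.09 (N-si) and 2.50 (H-si) with it, so it followed the same order of libraries at a lower level. Whether the counting used strand is not given in the sources used here, and how reads of the pair were divided was not tested.

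CYR61 (ENSG00000142871, chr1:86046444-86049645), a pro-angiogenic integrin ligand, was by far the most abundant member. Its level was 112 (N-scr) and 162 FPKM (H-scr) without the knockdown and 337 (N-si) and 266 (H-si) with it. Both TET1-si libraries exceeded both scrambled libraries, and every step of the order N-scr, H-scr, H-si, N-si was larger than counting error. TET1-si cells were higher by a log2 difference of 1.58 in normoxia and of 0.72 in hypoxia. Under hypoxia CYR61 differed in opposite directions in the cells with and without the knockdown: it was 1.44-fold (1.39 to 1.49) higher in H-scr than in N-scr and 1.27-fold (1.24 to 1.30) lower in H-si than in N-si. That difference between responses was not tested.

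CTGF (ENSG00000118523, chr6:132269316-132272513), a profibrotic matrix protein, was ordered the other way. Its level was 8.74 (N-scr) and 15.5 FPKM (H-scr) without the knockdown and 3.10 (N-si) and 4.09 (H-si) with it. Both TET1-si libraries were below both scrambled libraries. CTGF was 3.80-fold (3.24 to 4.46) lower in H-si than in H-scr and 2.82-fold (2.35 to 3.40) lower in N-si than in N-scr. The level under hypoxia was 1.78-fold (1.58 to 2.0) that under normoxia in scrambled cells and 1.32-fold (1.07 to 1.64) in knockdown cells. All 3 steps of its order were outside counting error.

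NOV (ENSG00000136999, chr8:120428546-120436593), a CCN protein that binds integrins, shared this order at a lower level. Its level was 1.64 (N-scr) and 3.08 FPKM (H-scr) without the knockdown and 0.956 (N-si) and 1.17 (H-si) with it, on 51 to 164 reads. Only H-scr stood clear of its neighbour in this order, as N-si and H-si (ratio 0.82 to 1.81) and H-si and N-scr (0.981 to 1.99) could not be separated. NOV was 2.63-fold (1.94 to 3.62) lower in H-si than in H-scr and 1.72-fold (1.18 to 2.46) lower in N-si than in N-scr. CTGF and NOV were also the 2 members that met the 3 criteria by which the study picked genes regulated by TET1 under hypoxia, which ask for more than 2 times the H-si level in H-scr, more in H-scr than in N-scr, and no less in N-scr than in N-si. These criteria were met by 3.84% of the 15057 genes with a mean of at least 1 FPKM.

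WISP1 (ENSG00000104415, chr8:134203282-134240603), a CCN protein first described as a Wnt target, was listed at 0 FPKM in both normoxic libraries. Under hypoxia it was at 0.0301 FPKM in scrambled and 0.361 in knockdown cells, about 1 and 13 reads. With 3 reads taken as the detection floor of N-si, the H-si level was at least 4.85-fold that of N-si. H-scr was itself under such a floor, and the ratio of H-si to it, 12.0 (2.14 to 604), rests on 1 read. WISP3 (ENSG00000112761, chr6:112375275-112392171) was at 0.119 (N-scr) and 0.0177 FPKM (H-scr) without the knockdown and 0.0708 (N-si) and 0.0386 (H-si) with it, with at most 3 reads in any library. Its last bases overlap the end of TUBE1, a tubulin gene on the opposite strand. Differences in WISP3 were not detectable at this depth.

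YAP1 (ENSG00000137693, chr11:101981192-102104154) itself was well expressed in all libraries. Its level was 30.8 (N-scr) and 31.3 FPKM (H-scr) without the knockdown and 45.6 (N-si) and 56.4 (H-si) with it. The scrambled libraries were indistinguishable (ratio 1.02, 0.972 to 1.06) and both TET1-si libraries were above them. H-si was 1.80-fold (1.73 to 1.87) H-scr, N-si was 1.48-fold (1.42 to 1.54) N-scr, and H-si was 1.24-fold (1.19 to 1.28) N-si. A non-coding gene on the opposite strand within YAP1, RP11-864G5.3, was listed at nearly the same levels, 30.2 (N-scr), 29.1 (H-scr), 46.8 (N-si) and 51.5 FPKM (H-si). As strand use is not given, reads of YAP1 may be counted in it, which was not tested.

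AMOTL2 (ENSG00000114019, chr3:134074716-134094321), an angiomotin-like scaffold that holds YAP in the cytoplasm, was at 23.4 (N-scr) and 34.6 FPKM (H-scr) without the knockdown and 33.4 (N-si) and 49.5 (H-si) with it. Knockdown went with a log2 difference of 0.52 in hypoxic and 0.51 in normoxic cells, and low oxygen with one of 0.56 in scrambled and 0.57 in knockdown cells. The near equality depended on the scaling, as median-of-ratios scaling gave 0.40 and 0.34 for knockdown and 0.51 and 0.56 for low oxygen. N-si and H-scr could not be told apart (ratio 0.988 to 1.09). AMOTL2 overlaps the transcribed pseudogene RPL39P5 on the same strand, which stood at 0.26 (N-scr) and 0.571 FPKM (H-scr) without the knockdown and 17.2 (N-si) and 16.3 (H-si) with it.

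AJUBA (ENSG00000129474, chr14:23440383-23451851) had the same lowest and highest library at a low level. It was at 0.388 (N-scr) and 0.893 FPKM (H-scr) without the knockdown and 1.19 (N-si) and 2.62 (H-si) with it, on 35 to 233 reads, so its mean reached 1 FPKM through its TET1-si libraries. H-scr and N-si overlapped in counting error (ratio 0.996 to 1.77), while N-scr lay below and H-si above both. Knockdown went with a log2 difference of 1.46 in hypoxic and 1.40 in normoxic cells, and low oxygen with one of 1.03 in scrambled and 1.08 in knockdown cells. AJUBA overlaps a protein-coding gene on the same strand, RP11-298I3.5, which varied only between 14.1 and 18.1 FPKM.

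ANKRD1 (ENSG00000148677, chr10:92671853-92681033), a nuclear ankyrin-repeat cofactor whose transcript is a standard readout of YAP, was at 0.148 (N-scr) and 0.161 FPKM (H-scr) without the knockdown and 1.59 (N-si) and 1.99 (H-si) with it. About 5, 6, 61 and 70 reads, in this order, lay behind them. The TET1-si libraries were 12.3-fold (5.58 to 35.9) above scrambled under hypoxia and 10.8-fold (4.64 to 36.4) under normoxia. Hypoxia gave no detectable difference in either cell type (ratios 1.09, 0.285 to 4.64, and 1.25, 0.874 to 1.79). Its mean of 0.971 FPKM fell just below the minimum of 1, so ANKRD1 is absent from the counts that follow.

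**Figure D2:**
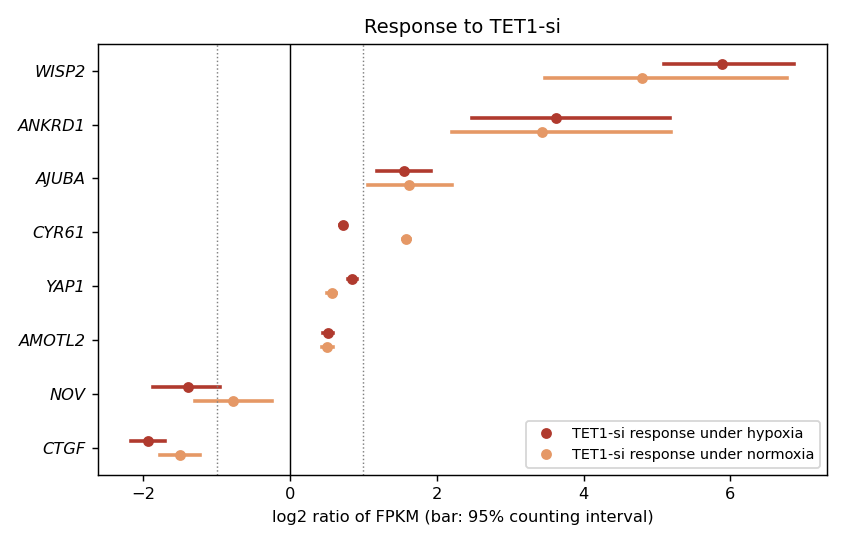
TET1-si response of 8 members as the log2 ratio of FPKM in TET1-si over scrambled cells, under hypoxia and under normoxia; bars are 95% counting intervals and dotted lines mark 2-fold. WISP2 (5.89 and 4.79) and ANKRD1 (3.62 and 3.43) lie farthest to the right, CTGF (-1.93 and -1.50) and NOV lie to the left of 0, and no interval of the 8 genes reaches 0.

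Of the 10 members, 7 had a mean of at least 1 FPKM, and WISP1, WISP3 and ANKRD1 did not. After TET1-si under hypoxia, 2 of the 7 were at least 2-fold higher (WISP2 and AJUBA), where 12.0% of the 15057 genes were, and 2 were at least 2-fold lower (CTGF and NOV), where 8.35% were. After TET1-si under normoxia, 3 were at least 2-fold higher (CYR61, WISP2 and AJUBA), where 12.1% of all genes were, and 1 was lower (CTGF), where 5.56% were. The members were chosen with this contrast known, and WISP2 and AJUBA, below 1 FPKM in both scrambled libraries, passed the minimum through their TET1-si libraries, so nothing is read from these shares. The median TET1-si response of the 7 was 0.72 under hypoxia and 0.57 under normoxia, beside 0.10 and 0.15 over all genes. For the same reasons nothing is read from these medians. Both TET1-si comparisons and both hypoxia comparisons draw on the same 4 libraries.

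In scrambled cells hypoxia was accompanied by a level at least 2-fold higher for 2 of the 7 members (WISP2 at 1.05 and AJUBA at 1.03), where 12.9% of all genes passed, and by a level at least 2-fold lower for 0, where 4.53% passed. Both genes were below 1 FPKM in these 2 libraries, both values sit just above the 2-fold limit of 1, and the WISP2 value rests on 4 and 12 reads. In TET1-si cells the same 2 genes were at least 2-fold higher (WISP2 at 2.50 and AJUBA at 1.08), where 12.5% of all genes passed, and 0 were lower, where 8.66% passed. Counting intervals were above 0 for 5 of the 7 members in each cell type, and below 0 for CYR61 in TET1-si cells. Among the 7, the hypoxia response differed most between the cell types for WISP2 (2.50 against 1.05), a difference that was not tested. The plain log2 ratio of WISP2 in scrambled cells was 1.43, with a counting interval of -0.24 to 3.57. That interval includes the ratio of 2.53 in TET1-si cells, so counting error alone does not separate the 2 responses.

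**Figure D3:**
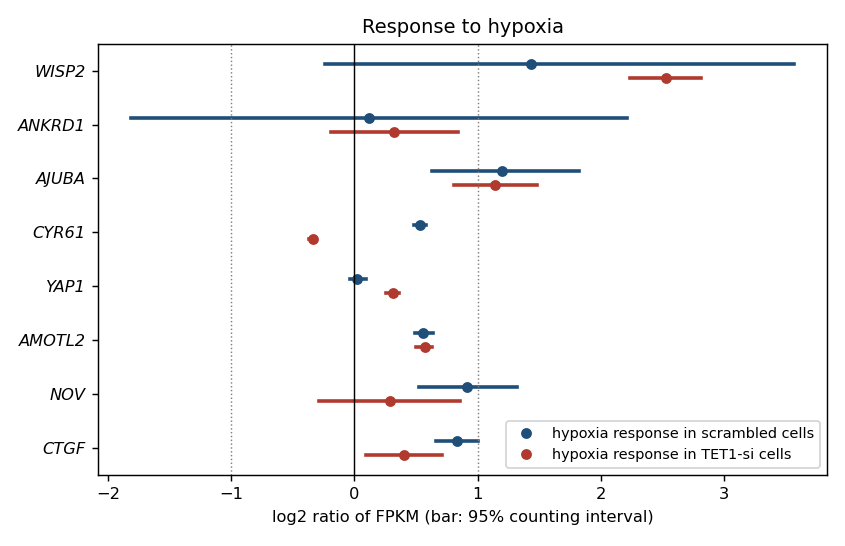
Hypoxia response of the same 8 members as the log2 ratio of FPKM under hypoxia over normoxia, in scrambled and in TET1-si cells, with 95% counting intervals and dotted lines at 2-fold. CYR61 lies on opposite sides of 0 in the 2 cell types (0.53 and -0.34), AMOTL2 and AJUBA have nearly the same value in both, and WISP2 lies farthest to the right in TET1-si cells (2.53).

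The remaining genes of the pathway were counted from lists. The list of the Hippo kinase module and inhibitors of YAP had 20 genes with a mean of at least 1 FPKM. It also holds LIM proteins of the AJUBA group, so its counts and median mix different effects on YAP. After TET1-si, 4 were at least 2-fold higher under hypoxia and 5 under normoxia, and 1 was lower in each, where 12.0% and 12.1% of all genes were higher and 8.35% and 5.56% lower. AMOT, the founding angiomotin, was at 0.664 (N-scr) and 0.448 FPKM (H-scr) without the knockdown and 2.69 (N-si) and 6.13 (H-si) with it, a log2 response of 3.51 under hypoxia. WTIP, a LIM protein of the AJUBA group, went the other way from AJUBA, at 1.24 (N-scr) and 2.58 FPKM (H-scr) against 0.534 (N-si) and 0.387 (H-si), a log2 response of -2.46. All 3 angiomotins were thus higher in TET1-si cells, as AMOTL1 (1.97 under hypoxia, 1.07 under normoxia) joined AMOT and AMOTL2. LATS2, a kinase that inactivates YAP (1.35 and 1.57), and PTPN14, a phosphatase that retains YAP in the cytoplasm (1.51 and 1.24), were the other genes called in both. The list median was 0.26 in hypoxic and 0.45 in normoxic cells, beside 0.10 and 0.15 over all genes. AMOT, below 1 FPKM in both scrambled libraries, passed the minimum through its TET1-si libraries. WTIP, below 1 FPKM in both TET1-si libraries, passed it through its scrambled libraries.

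Of the TEAD factors and YAP partners, 6 had a mean of at least 1 FPKM. After TET1-si, 2 of these 6 were at least 2-fold higher in each oxygen state, with 0 lower. The matching shares of the whole table were 12.0% up and 8.35% down for the hypoxic pair of libraries. For the normoxic pair they were 12.1% and 5.56%. A list of 6 genes is too short to read anything from this count. WWTR1, which codes for TAZ, was at 18.7 (N-scr) and 18.7 FPKM (H-scr) without the knockdown and 49.6 (N-si) and 39.9 (H-si) with it (1.09 under hypoxia and 1.40 under normoxia). VGLL1, a TEAD-binding cofactor, was at 2.89 (N-scr) and 11.8 FPKM (H-scr) against 12.5 (N-si) and 38.1 (H-si). The TEAD factors stayed under the 2-fold limit after TET1-si, with log2 responses under hypoxia of -0.03 for TEAD1, -0.75 for TEAD2, 0.35 for TEAD3 and 0.31 for TEAD4. Like YAP1, WWTR1 was higher in both TET1-si libraries and alike in the scrambled ones.

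Genes of the YAP/TAZ target signature, taken without the members, were called in both directions after TET1-si, as genes of the whole table were. Of 18 genes, 5 were 2-fold or more above and 3 as far below the scrambled level in hypoxic TET1-si cells, and 6 and 3 in normoxic ones, with medians of 0.57 and 0.33. Over all genes 12.0% were higher and 8.35% lower in the first comparison, and 12.1% and 5.56% in the second. TGFB2, a TGF-beta ligand, was at 14.5 (N-scr) and 9.67 FPKM (H-scr) without the knockdown and 66.5 (N-si) and 50.5 (H-si) with it, a log2 response of 2.37 under hypoxia. IGFBP3, an insulin-like growth factor binding protein, was at 68.1 (N-scr) and 148 FPKM (H-scr) against 8.68 (N-si) and 28.6 (H-si), a log2 response of -2.37. LATS2 and PTPN14 are in this list as well as in the Hippo list, and TGFB2 is also in the TGF-beta list. RBMS3, called higher in normoxic TET1-si cells, reached the minimum through its TET1-si libraries. It was at 0.797 (N-scr) and 1.14 FPKM (H-scr) against 3.44 (N-si) and 1.83 (H-si). In response to hypoxia, 3 of the 18 were higher and 1 lower in each cell type. The matching shares of the whole table were 12.9% up and 4.53% down where the knockdown was absent. Where it was present they were 12.5% and 8.66%. Nothing is read from so few calls.

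Of the receptors of the CCN proteins, 8 had a mean of at least 1 FPKM. After TET1-si under hypoxia, 0 were at least 2-fold higher or lower, where 12.0% of all genes were higher and 8.35% lower. Under normoxia 1 was higher and 0 were lower, where 12.1% and 5.56% of all genes were. With 8 genes nothing is read from these counts. ITGB1, the shared beta subunit of most CCN-binding integrins, was at 329 (N-scr) and 286 FPKM (H-scr) without the knockdown and 199 (N-si) and 170 (H-si) with it (-0.75 under hypoxia). ITGB5 was at 34.1 (N-scr) and 34.9 FPKM (H-scr) against 105 (N-si) and 51.4 (H-si) (0.56 under hypoxia and 1.62 under normoxia). Low oxygen went with 3 of the 8 at least 2-fold higher and 0 lower without the knockdown, and with 3 higher and 1 lower with it. Over all genes 12.9% were higher and 4.53% lower without the knockdown, and 12.5% and 8.66% with it.

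Other inputs to CCN transcription were counted in the same way. Over all genes, 12.0% were at least 2-fold higher and 8.35% lower after TET1-si under hypoxia, and 12.1% and 5.56% under normoxia. Nothing is read from the counts of lists this short. Of 11 TGF-beta ligands, receptors and targets, 3 were at least 2-fold higher after TET1-si under each oxygen state and 0 lower, with TGFB2 and the matrix protein TGFBI (1.58 under hypoxia) leading. SMAD4, also on that list but not among the 11, was listed at 0 in all 4 libraries. Of 9 SRF and MRTF factors and targets, which include smooth-muscle contractile genes, 0 were higher after TET1-si, and 2 were lower in hypoxic and 3 in normoxic cells. MYL9, a myosin light chain, was at 26.6 (N-scr) and 45.3 FPKM (H-scr) without the knockdown and 8.47 (N-si) and 18.4 (H-si) with it. TAGLN, an actin-binding protein, was at 5.30 (N-scr) and 9.24 FPKM (H-scr) against 2.43 (N-si) and 3.74 (H-si). Both had the order of libraries of CTGF. Of 7 Wnt/beta-catenin genes, 1 was higher after TET1-si in hypoxic cells (TCF7L2, 1.07) and 2 in normoxic cells, 0 were lower, and ZNRF3 had a log2 response of -0.67 under hypoxia. Among the oestrogen receptor and its targets, examined because WISP2 is known as an oestrogen-responsive gene, only ESR1 of 5 reached a mean of 1 FPKM. PGR and TFF1 were listed at 0 in all 4 libraries. GREB1 was at 0.563 (N-scr) and 0.379 FPKM (H-scr) against 0.277 (N-si) and 0.349 (H-si). PDZK1 was at 0.144 (N-scr) and 0.327 FPKM (H-scr) against 0.109 (N-si) and 0.0976 (H-si). None of these targets was higher after TET1-si in either oxygen state. ESR1 was at 0.455 (N-scr) and 1.02 FPKM (H-scr) without the knockdown and 3.45 (N-si) and 4.58 (H-si) with it, so both TET1-si libraries were above both scrambled libraries. It reached the minimum through its TET1-si libraries, so nothing is read from its being called. A link between ESR1 and WISP2 was not tested.

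**Figure D4:**
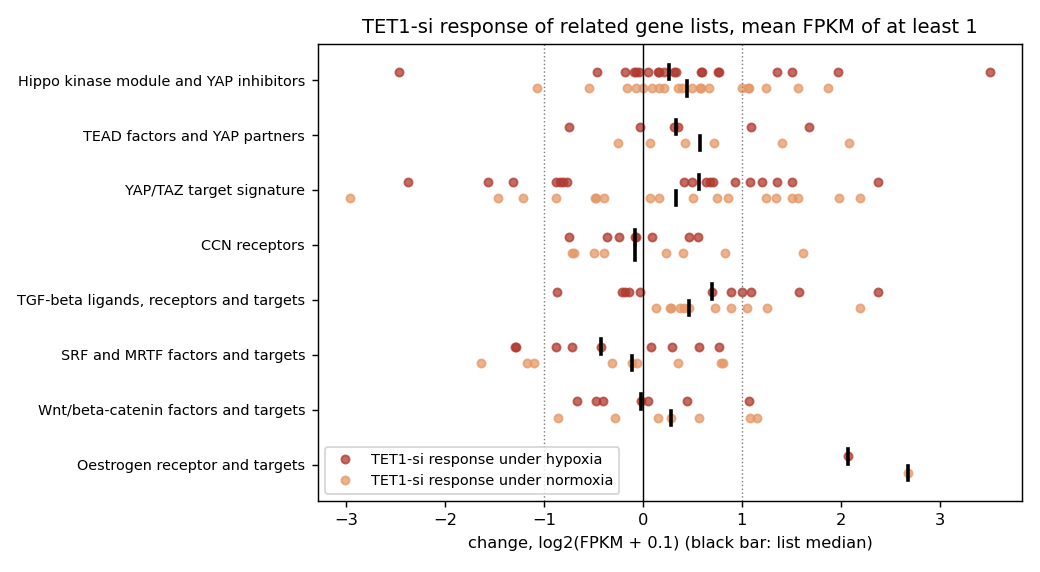
TET1-si response, as the difference in log2(FPKM + 0.1), of every gene with a mean of at least 1 FPKM in 8 gene lists, under hypoxia and normoxia; black bars are list medians and dotted lines mark 2-fold. The YAP/TAZ target list spreads from -2.37 to 2.37 under hypoxia, while the CCN receptors stay within 2-fold there.

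Genes whose profile over the 4 libraries lay nearest to a member were named as a description of 4 points each, by Euclidean distance between profiles of log2(FPKM + 0.1) centred on their means. CALML5, a calmodulin-like protein of differentiating keratinocytes, was nearest to WISP2 (distance 0.69) at 0.197 (N-scr) and 0.368 FPKM (H-scr) without the knockdown and 3.13 (N-si) and 16.0 (H-si) with it. TMEM52B (1.08) and the annexin ANXA9 (1.10) followed, farther away than the neighbours of any other member. For the other members the 3 nearest genes lay within 0.21. They were KCNG1, CCDC88C and CFD for CYR61. CTGF had CNGB1, TRIM31 and SLC6A13, and NOV had FSTL1, HIAT1 and TMEM60. For AMOTL2 they were ATRX, ARNT (the HIF-beta subunit) and GORASP1, and for YAP1 they were SPSB2, CARKD and NFRKB. AJUBA lay nearest to RAB40B, MMP14 (a membrane-anchored collagenase, from 24.9 FPKM in N-scr to 131 in H-si) and MMP24-AS1.

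Genes around WISP2 are listed for their position. WISP2 was chosen for its large response, so that its neighbours had smaller ones was fixed by the choice. Of 34 genes whose start lies within 500 kb of the WISP2 start, 19 were above 0 in at least 1 library and 9 had a mean of at least 1 FPKM. After TET1-si, 1 of the 9 was at least 2-fold higher and 0 were lower, under each oxygen state. The gene called was ADA, adenosine deaminase, 63 kb away, at 4.22 (N-scr) and 2.95 FPKM (H-scr) without the knockdown and 9.44 (N-si) and 7.68 (H-si) with it. The median response of the 9 was 0.36 under hypoxia and 0.41 under normoxia, beside 0.10 and 0.15 over all genes. After that of WISP2, the TET1-si responses under hypoxia that were largest in size were in genes below 1 FPKM on average. PI3, the elastase inhibitor elafin, 460 kb away, was at 0.48 (N-scr) and 2.80 FPKM (H-scr) against 0 (N-si) and 0.122 (H-si), a log2 response of -3.71, and RP11-445H22.3, 19 kb away, was listed at 0 in both scrambled libraries and at 0.155 (N-si) and 0.525 FPKM (H-si), a log2 response of 2.64.

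**Figure D5:**
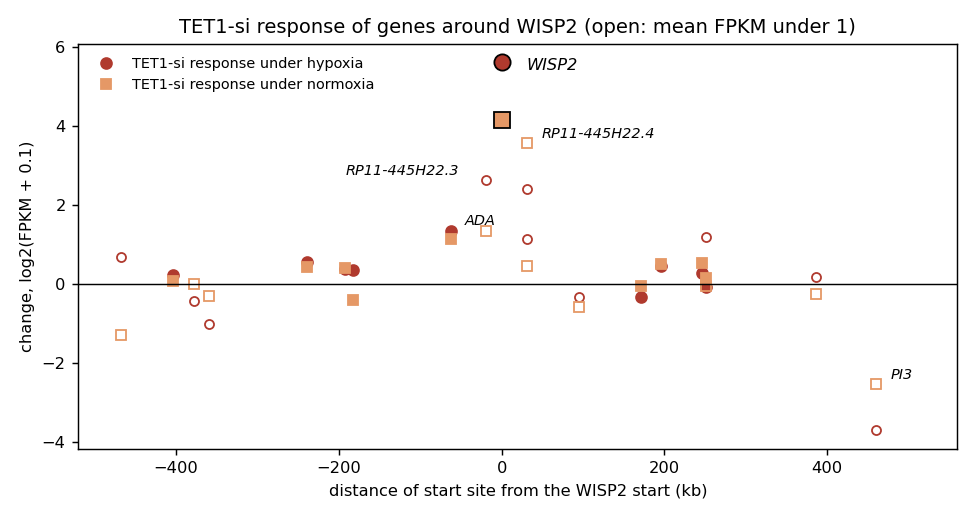
TET1-si response, as the difference in log2(FPKM + 0.1), of the genes above 0 whose start lies within 500 kb of the WISP2 start, against the distance of their start; open symbols have a mean under 1 FPKM. WISP2, which was chosen for its response, stands at 5.62 and 4.16 at distance 0, and the 9 filled neighbours lie between -0.41 and 1.35.

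Markers of cell type were read beside these values. All 7 epithelial markers were present, and their summed level was lower in TET1-si cells, at 5947.2 (N-scr) and 7414.0 FPKM (H-scr) without the knockdown and 1824.6 (N-si) and 2727.9 (H-si) with it. The 4 keratins, which carry most of this sum, were each at least 2-fold lower in both oxygen states, with log2 responses under hypoxia of -6.05 for KRT14, -2.09 for KRT18, -2.07 for KRT8 and -1.48 for KRT5. The other 3 markers stayed within 2-fold, with responses under hypoxia and normoxia of 0.45 and 0.57 for the adhesion protein CDH1, 0.68 and 0.41 for EPCAM, and -0.04 and -0.27 for the squamous factor TP63. Of 9 stromal markers 8 were below 1 FPKM in every library and 3 at 0 throughout. COL1A1 was the exception, at 5.29 to 37.0 FPKM, and the stromal sum was 5.39 (N-scr) and 28.9 FPKM (H-scr) without the knockdown and 14.2 (N-si) and 37.3 (H-si) with it. Of 4 endothelial markers with a unique row, 2 were below 1 FPKM throughout, CDH5 was at 8.75 to 45.5 FPKM, and the sum ranged from 8.93 to 48.4. Of 5 leukocyte markers 3 were below 1 FPKM throughout and 2 at 0, with a sum of 21.6 to 30.2. The part of these markers in the responses of WISP2, CYR61 and CTGF was not tested.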

How the data were processed

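RNA from 4 groups of FADU cells was analysed, with 1 library per group as the labels give it. The authors prepared TruSeq mRNA libraries, sequenced 100 bp reads (single end per the labels, paired end per the methods), aligned them to hg19 with TopHat and deposited FPKM values from Cufflinks with Ensembl annotations. Tool versions, the annotation release and strand use are not given in the sources used here. Coordinates are hg19, counted from 1, promoter windows excepted.

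Changes are differences in log2(FPKM + 0.1). Calls needed a mean of at least 1 FPKM and a difference of at least 1. Of the gene IDs, 111 that filled more than 1 row were left out. Depth was recovered from genes with 1 exon, whose low FPKM are whole reads within 0.05 in 95.4% to 96.5% of values, at a length offset of 212 to 214 bases. Approximate reads used the canonical transcript inside the locus in the table. Ratio intervals are Clopper-Pearson at 95%, and 3 reads were the floor. Members and lists were chosen with earlier results of these data known. Named genes were all members, TET1, in each list the 2 with the largest response under hypoxia plus WWTR1 and TEAD1 to TEAD4, the 2 largest around WISP2, and the 3 nearest profiles per member. AMOTL1, LATS2, PTPN14, RBMS3, SMAD4, ADA, ESR1, COL1A1 and CDH5, with the overlapping genes and the oestrogen targets, were named after their values were seen or for their position. Python 3.11.15, numpy 2.4.6, pandas 2.3.3 and scipy 1.17.1 were used, and the depth search and calls were tested on simulated data. Other pseudocounts, filters and scalings were tried.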

Additional observations from a re-analysis of the deposited data

Results flagged for a closer look

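CYR61 is singled out because its hypoxia responses lay on opposite sides of 0, and both counting intervals lacked 0. Scrambled cells gave 0.53 and knockdown cells -0.34, a difference of -0.87, and this difference was not tested. The signs were kept under the 5 alternative pseudocounts and scalings, with ranges of 0.47 to 0.64 and of -0.35 to -0.21.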

How the results depend on the processing

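Of 112 member and YAP target counts recomputed under alternative settings, 102 stayed within 1.5 times their main value and 10 did not. With a pseudocount of 1, members at least 2-fold higher numbered 0 for hypoxia in scrambled cells, 1 for hypoxia in TET1-si cells and 1 for TET1-si under hypoxia, and 1 member was lower for TET1-si under hypoxia. With a minimum mean of 5 FPKM each of these 4 counts was 1, fewer members being tested. With no filter, 4 members were higher after TET1-si under hypoxia. With median-of-ratios scaling 1 member was higher under hypoxia in scrambled cells. The WISP2 response ranged from 4.29 to 5.86 under hypoxia and from 2.30 to 4.71 under normoxia, its lowest values coming with a pseudocount of 1. The sign of every response of the 7 members was kept under the 5 alternative pseudocounts and scalings, except that YAP1 in the hypoxia response of scrambled cells ranged from -0.03 to 0.14. Over all genes, median-of-ratios scaling turned the TET1-si calls under hypoxia from 1807 higher and 1258 lower to 1478 and 1524, and its median response from 0.10 to -0.01, so the TET1-si responses of YAP1 and AMOTL2 became 0.73 and 0.40. Groups of 1 library left no replicate to omit. Genes under about 3 reads, such as WISP3, could not be measured at this depth.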
